A study of Mus musculus with 12 samples.

Results

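The SLC25 family holds the carriers that move metabolites, nucleotides, ions and cofactors across the inner membrane of the mitochondrion. It was followed here in mouse marrow stromal cells that were driven towards fat cells under 3 conditions. The count table has 47 symbols of the form Slc25a with a number, among 23955 symbols in all, and these 47 rows are the members. Within the family they were chosen by name alone, and they were then ordered by their measured response. The family itself was chosen with earlier results of these data known. Of the 47, 39 had enough reads to be tested and 8 did not.

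The cells were mesenchymal stem cells from the bone marrow of female C57BL/6 mice, a commercial stock that can give rise to fat, bone and cartilage cells. Every culture received the same adipogenic medium for 14 days, which held insulin at 5 ug/mL, dexamethasone at 1 uM and isobutylmethylxanthine at 0.5 mM. The groups were the vehicle (0.1% DMSO), 500 nM rosiglitazone (ROSI), a drug that binds the fat-cell receptor PPARγ, and 50 nM tributyltin (TBT), an organotin compound that binds RXR as well as PPARγ, with 4 libraries in each group. The title of the series asks what RXR activation does during the making of fat cells. No group without the cocktail is part of these files, so each comparison starts from induced cells.

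A carrier of this family folds from repeats of a short membrane unit and swaps one small molecule for another, or moves one with a proton. In a fat cell the family links fuel use to lipid storage. Citrate leaves the mitochondrion as a source of carbon for fatty acids, the malate and aspartate shuttles balance reducing power, acylcarnitine brings in fatty acids for oxidation, and the ADP/ATP and phosphate carriers supply the ATP synthase.

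Library totals ran from 4027152 to 7474654 counts. The 8 adipocyte markers of a fixed list (Fabp4, Adipoq, Plin1, Cebpa, Lpl, Cidec, Cd36 and Pparg) summed to between 1122 and 2408 CPM in DMSO, 5553 and 7131 in ROSI, and 2843 and 3931 in TBT, where CPM is a gene's count per 1000000 counts of the scaled library size. The 8 stromal markers summed to between 2099 and 2831, 759 and 845, and 1349 and 1819 CPM. The members of these lists did not all move with their sums. With ROSI, 6 of 8 adipocyte markers rose and 0 fell, while with TBT 4 rose (Fabp4, Plin1, Lpl and Cd36) and Adipoq, the hormone adiponectin, fell (-2.17, adjusted p = 0.00019). Of 7 tested stromal markers, 3 fell with ROSI (Pdgfra, Pdgfrb and Ly6a) and 3 with TBT (Pdgfra, Ly6a and Cd44), and Nt5e and Vcam1 had positive values that did not pass with either. All 4 markers of lymphocytes and all 4 of skeletal muscle were too low to test, and so was the stromal marker Eng, with means of 0.425, 0.327 and 0.198 CPM. The TBT group was split: the precursor of ribosomal RNA, Rn45s, took 0.399% to 0.670% of the counts in TBT replicates 1 to 3 and 6.85% in TBT replicate 4, against 2.64% to 6.18% in DMSO and 1.36% to 9.27% in ROSI. The 20% of genes richest in GC, taken relative to the 20% poorest in GC, lay between -0.54 and -0.26 on the log2 scale in TBT replicates 1 to 3, at 0.11 in TBT replicate 4, between 0.054 and 0.27 in DMSO and between -0.026 and 0.41 in ROSI. In both measures TBT replicates 1 to 3 lay below all the other libraries, and TBT replicate 4 lay within the range of DMSO and ROSI together. This difference runs with the TBT label in 3 of its 4 libraries, and its part in the TBT comparisons was not tested beyond the GC-corrected fits given with them.

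Promoters are shown for 3 of the leading carriers: Slc25a34, which had the largest response to both ligands, Slc25a42, which also rose with both, and Slc25a39, which rose with ROSI. They come from RefSeq (GRCm38.p6), run from 250 bases before to 50 after the start site, and lie at chr4:141623785-141624084, chr8:70212232-70212531 and chr11:102407468-102407767, each on the minus strand. Capitals mark the nuclear receptor core site AGGTCA on either strand.
Slc25a34: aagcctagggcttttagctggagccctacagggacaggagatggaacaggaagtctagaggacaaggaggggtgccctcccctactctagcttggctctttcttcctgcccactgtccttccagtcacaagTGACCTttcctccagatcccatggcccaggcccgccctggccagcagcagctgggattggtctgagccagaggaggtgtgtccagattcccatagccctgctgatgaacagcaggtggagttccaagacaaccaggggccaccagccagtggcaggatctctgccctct
Slc25a42: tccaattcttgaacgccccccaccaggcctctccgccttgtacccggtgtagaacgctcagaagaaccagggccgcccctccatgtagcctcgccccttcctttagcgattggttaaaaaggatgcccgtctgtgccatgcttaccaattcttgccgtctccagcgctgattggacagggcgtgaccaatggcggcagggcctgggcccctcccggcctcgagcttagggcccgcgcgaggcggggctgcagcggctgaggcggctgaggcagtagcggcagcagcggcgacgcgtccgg
Slc25a39: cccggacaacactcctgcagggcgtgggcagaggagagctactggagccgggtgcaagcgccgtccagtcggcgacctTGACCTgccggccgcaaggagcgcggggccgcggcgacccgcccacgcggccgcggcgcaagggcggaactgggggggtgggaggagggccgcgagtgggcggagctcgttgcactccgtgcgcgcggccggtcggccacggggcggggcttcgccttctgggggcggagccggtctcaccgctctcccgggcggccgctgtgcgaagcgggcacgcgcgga
The core site stands once in Slc25a34, 119 bases before the start site, and once in Slc25a39, 172 bases before it, both times read as TGACCT. Slc25a42 has none in this window. Slc25a33, which rose more with ROSI than Slc25a39 did, has none either, and its promoter is not shown. RefSeq promoters matched 36 of the 47 members, with 46 promoters among them. Of these 46 promoters, 4 hold the core site (those of Slc25a34, Slc25a39, Slc25a45 and Slc25a47), beside 16.3% of 32851 promoters of all genes. The full PPAR element is AGGTCA repeated head to tail with 1 free base N between the copies. It was in 0 of the 46 on either strand and in 0.0396% of all promoters. With AGGNCA in place of each copy it was again in 0 of the 46, and in 0.381% of all promoters. The longer element of estrogen-related receptors, TCAAGGTCA, which contains the core site, was in 0 of the 46 and in 0.423% of all promoters. These are matches of letters only.

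With ROSI, 14 of the 39 tested carriers rose and 4 fell against DMSO (edgeR quasi-likelihood test, Benjamini-Hochberg adjusted p under 0.05 over all 12323 tested genes). Of all tested genes, 22.6% were called in this comparison, 10.0% higher and 12.6% lower. The carriers were ranked by this same contrast, so the counts describe these libraries and nothing is read from their distance to the background. Without ROSI replicate 2, 11 carriers passed (9 higher, 2 lower), and without DMSO replicate 1 or DMSO replicate 4 the higher count was 9. Calls over all genes fell too, from 2787 of 12323 to 2219 of 12402 without ROSI replicate 2. They were 2226 of 12548 without DMSO replicate 1 and 2248 of 12330 without DMSO replicate 4. The median log2 fold change was 0.28 over the 39 carriers and 0.01 over all tested genes. In a bulk culture fewer cells of a type and less RNA per cell cannot be told apart, and 6 of the 8 adipocyte markers rose as the 14 carriers did. Their part in the result was not tested.

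**Figure D1:**
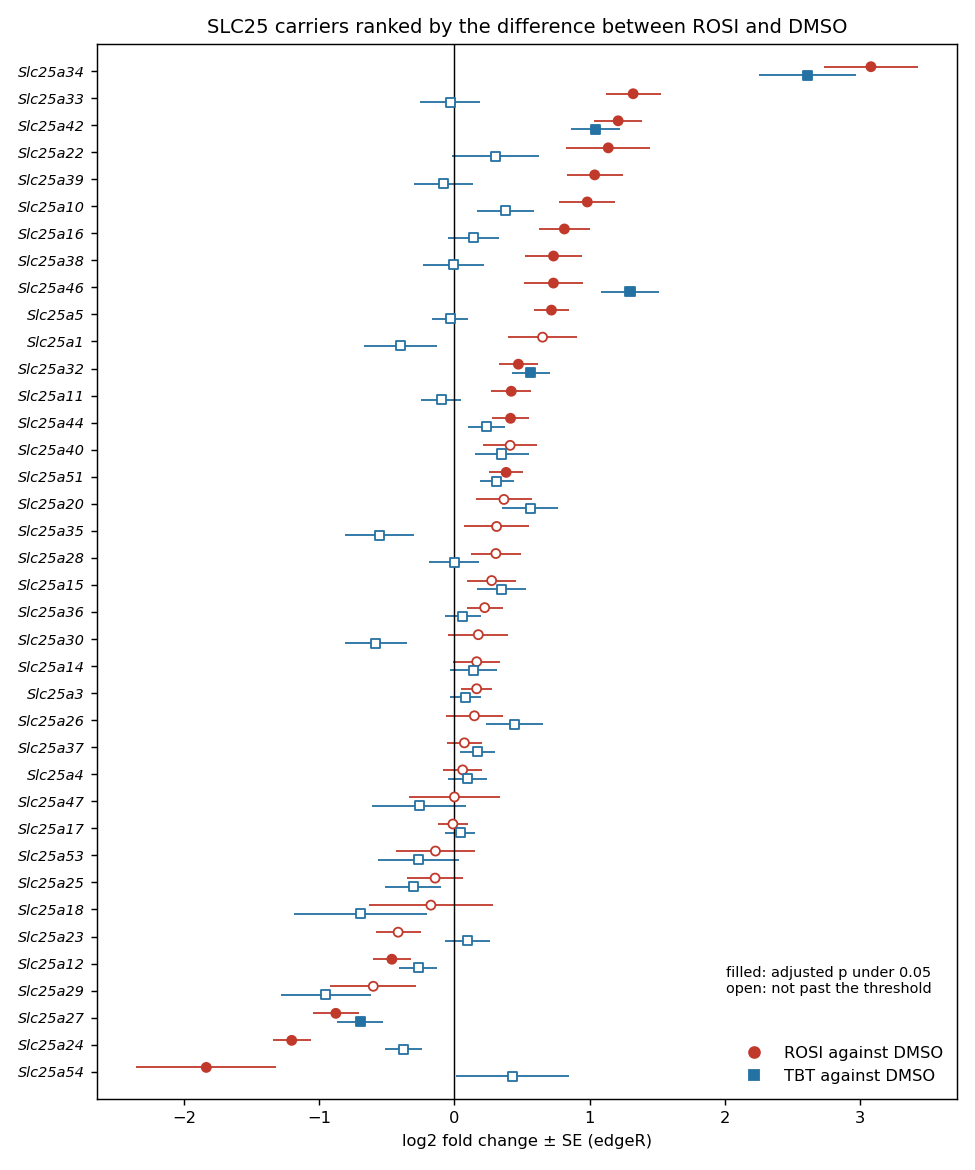
Log2 fold change ± SE of 38 of the tested carriers, ordered by ROSI against DMSO (circles), with TBT against DMSO (squares). Filled symbols passed an adjusted p of 0.05. Slc25a34 leads both comparisons, while Slc25a33, Slc25a39 and Slc25a5 are filled for ROSI and lie near 0 for TBT.

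At the head of the ranking was Slc25a34, a carrier whose substrate is not settled. Its 4 DMSO libraries, in the order of their replicate numbers, stood at 0.713, 0.702, 2.90 and 1.26 CPM, the ROSI libraries at 14.5, 10.4, 15.0 and 12.6, and the TBT libraries at 12.5, 11.2, 7.70 and 6.31. Neither ligand group overlapped with DMSO. The log2 fold change was 3.08 ± 0.35 for ROSI (SE, adjusted p = 7.1e-06) and 2.61 ± 0.36 for TBT (adjusted p = 0.00025). The DMSO level rests on 35 reads in all, of which replicate 3, the DMSO library with the highest adipocyte marker sum, held 21, and without it the ROSI value was 3.79. Its relative Slc25a35, also without a settled substrate, stood at 5.52 ± 0.485 CPM in DMSO (SD, n = 4), 6.90 ± 0.879 in ROSI and 3.77 ± 1.36 in TBT. Slc25a35 passed the threshold in neither comparison with DMSO (adjusted p = 0.40 and 0.15).

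Next came carriers of nucleotides and coenzymes, of which 5 of 9 tested members rose with ROSI and 0 fell. Slc25a33, which brings pyrimidine nucleotides into the mitochondrion, went from 7.60, 6.55, 8.15 and 6.95 CPM in DMSO to 14.5, 21.8, 16.2 and 20.9 in ROSI, with 5.18, 7.91, 6.63 and 9.13 in TBT. All ROSI libraries lay above all others. It was 1.32 ± 0.20 higher in ROSI than in DMSO on the log2 scale (adjusted p = 0.00014), and in TBT against DMSO the difference was -0.03, with a 95% interval from -0.49 to 0.43. Slc25a42, a coenzyme A carrier, stood at 15.7, 14.3, 23.3 and 15.3 CPM in DMSO, at 41.4, 39.3, 39.97 and 39.9 in ROSI and at 32.9, 30.5, 32.3 and 47.4 in TBT. Both ligand groups lay above every DMSO library. Its log2 fold changes were 1.21 ± 0.18 (adjusted p = 8.1e-05) and 1.04 ± 0.18 (adjusted p = 0.0013). Slc25a16, linked to coenzyme A transport, rose by 0.81 ± 0.19 with ROSI (adjusted p = 0.0040). Slc25a32, a carrier of folate and FAD, and Slc25a51, the NAD+ carrier, rose by 0.47 ± 0.14 and 0.38 ± 0.13 (adjusted p = 0.022 and 0.037). The Slc25a32 call ended without DMSO replicate 1, 2 or 4 or ROSI replicate 2, and the Slc25a51 call without DMSO replicate 1 or 2 or ROSI replicate 1 or 2, with adjusted p of up to 0.080 and 0.11. Slc25a17, the carrier of peroxisomes rather than mitochondria, stood at 98.7 ± 4.85, 98.0 ± 8.16 and 102 ± 5.78 CPM in DMSO, ROSI and TBT.

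The carriers of tricarboxylic and dicarboxylic acids gave 2 of 3 tested members higher with ROSI. Slc25a10 trades malate or succinate for phosphate. It stood at 15.9, 14.0, 15.9 and 13.4 CPM in DMSO and at 38.6, 29.7, 24.3 and 25.3 in ROSI, without overlap, a log2 fold change of 0.98 ± 0.21 (adjusted p = 0.0020). In TBT it was at 16.1, 14.9, 17.8 and 28.5 CPM, where replicate 4 lay above the other 3. Slc25a11, the oxoglutarate and malate carrier, rose less, from 34.1 ± 3.91 to 45.7 ± 3.08 CPM (0.42 ± 0.15, adjusted p = 0.047). That call ended when any of DMSO replicates 1, 2 and 4, ROSI replicates 1, 2 and 3 or TBT replicate 3 was left out (adjusted p of up to 0.13). Slc25a1 exports citrate for fatty acid and sterol synthesis. It was at 6.18, 12.2, 9.12 and 8.69 CPM in DMSO, at 15.5, 14.9, 13.3 and 13.2 in ROSI and at 6.26, 4.25, 5.56 and 11.5 in TBT. The ROSI libraries lay above all others, yet the difference from DMSO of 0.65 ± 0.25 did not pass the threshold (adjusted p = 0.077). It passed without DMSO replicate 2 (0.81, adjusted p = 0.048), without TBT replicate 4 (0.66, adjusted p = 0.017), and in 6 of the other alternatives, among them DESeq2 and the fit without a filter.

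Amino acid carriers went both ways: 3 of 7 tested members rose with ROSI and 1 fell. Slc25a22, a glutamate carrier, was at 10.2, 4.68, 10.8 and 5.53 CPM in DMSO, at 21.1, 19.9, 15.1 and 13.4 in ROSI and at 5.72, 7.33, 9.63 and 16.5 in TBT, so that only ROSI cleared the DMSO libraries (1.14 ± 0.31, adjusted p = 0.013). Slc25a38, which supplies glycine for haem synthesis, rose by 0.73 ± 0.21 (adjusted p = 0.019), and Slc25a44, the carrier of branched-chain amino acids, by 0.41 ± 0.14 (adjusted p = 0.036). The Slc25a38 call ended without DMSO replicate 1 or 4 or ROSI replicate 2 (adjusted p of up to 0.074). The Slc25a44 call ended without DMSO replicate 2, 3 or 4 or ROSI replicate 1, 2 or 4 (adjusted p of up to 0.10). The member that fell was Slc25a12, one of the pair of aspartate and glutamate carriers of the malate-aspartate shuttle. It was at 60.8, 63.4, 55.4 and 56.4 CPM in DMSO and at 42.6, 31.8, 47.2 and 49.6 in ROSI, a log2 fold change of -0.46 ± 0.14 (adjusted p = 0.024) that passed no more without DMSO replicate 1 or 2 or ROSI replicate 1 or 2 (adjusted p of up to 0.084). The other of the pair, Slc25a13 (citrin), was below the filter, with 38, 25 and 28 reads in all in DMSO, ROSI and TBT.

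**Figure D2:**
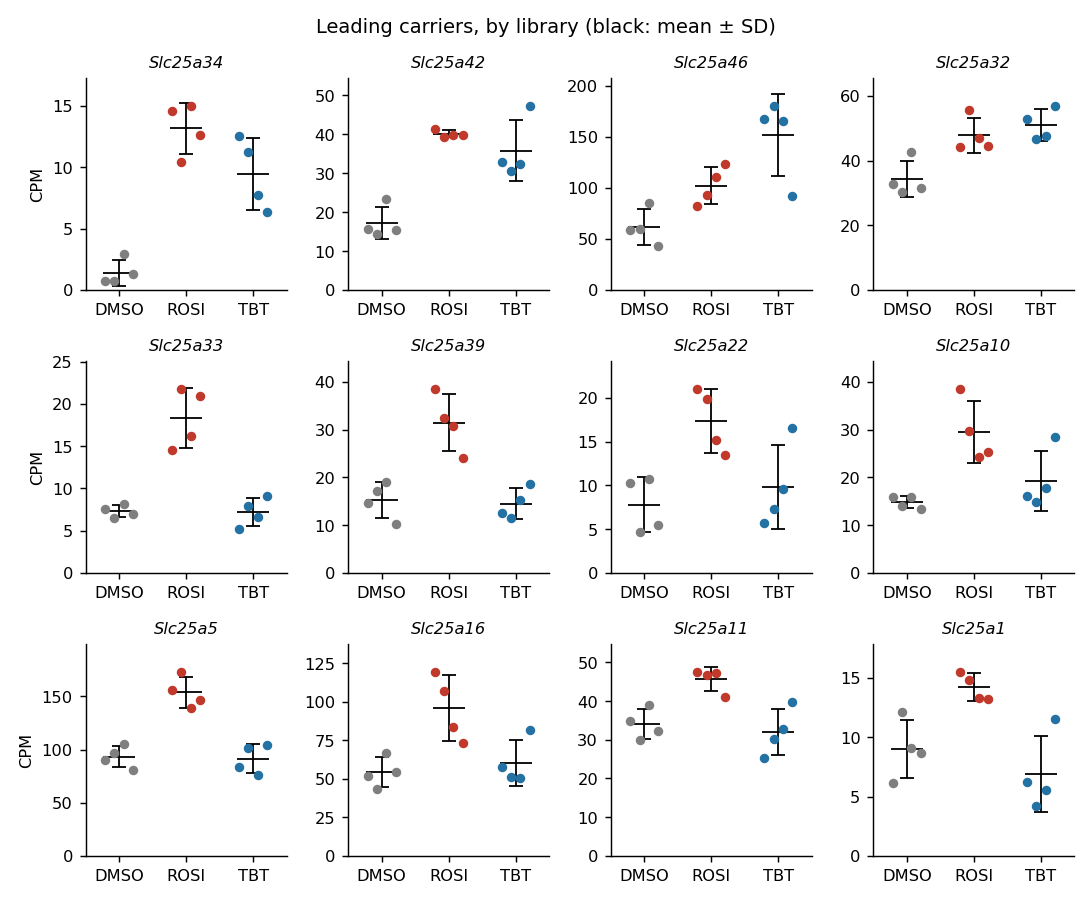
CPM of 12 carriers in each library, with group mean and SD (n = 4 per group). In Slc25a34, Slc25a42 and Slc25a32 both ligand groups lie above every DMSO library. In Slc25a33, Slc25a39, Slc25a5 and Slc25a1 the ROSI libraries lie above all others. Replicate 4 is the highest TBT point in at least Slc25a42, Slc25a32, Slc25a33, Slc25a39, Slc25a22, Slc25a10, Slc25a5 and Slc25a1.

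Among the carriers that feed ATP synthesis, 1 of 6 tested members rose with ROSI and 1 fell. Per kilobase of exon, Slc25a3, the phosphate carrier, had the highest mean level of the family in each group, 202 ± 17.6 CPM per kb in DMSO, 226 ± 12.2 in ROSI and 213 ± 16.3 in TBT. Its differences from DMSO were 0.16 ± 0.11 and 0.08 ± 0.11 on the log2 scale (95% intervals -0.08 to 0.40 and -0.16 to 0.32). Slc25a4, the ADP/ATP carrier of heart and muscle, was next, at 158 ± 18.7, 165 ± 23.3 and 169 ± 25.97 CPM per kb, and its log2 fold changes were 0.06 ± 0.14 and 0.10 ± 0.14. Slc25a5, the ADP/ATP carrier of dividing and many other cells, was at 90.5, 96.9, 105 and 81.2 CPM in DMSO, at 156, 173, 139 and 146 in ROSI and at 83.6, 102, 76.6 and 104 in TBT. Its ROSI libraries lay above all others, with a log2 fold change of 0.72 ± 0.13 (adjusted p = 0.00068). The ratio of Slc25a4 to Slc25a5, both per kb, ran from 1.67 to 2.36 in DMSO, from 0.940 to 1.57 in ROSI and from 1.62 to 3.00 in TBT. Slc25a4 and Slc25a5 are close copies of each other, Slc25a5 has many processed pseudogenes, and how reads between copies were counted is not given, so the split between them is uncertain.

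Slc25a24, which exchanges ATP-Mg for phosphate and so sets the adenine nucleotide pool of the matrix, was the carrier with the smallest p among those that fell. It stood at 74.1, 62.9, 55.3 and 58.0 CPM in DMSO, at 30.6, 28.4, 27.03 and 22.5 in ROSI and at 44.3, 43.8, 49.4 and 54.8 in TBT. The 3 groups did not overlap, with TBT between the others. The fall with ROSI was -1.20 ± 0.14 on the log2 scale (adjusted p = 9.7e-06), and the TBT difference of -0.38 ± 0.14 did not pass (adjusted p = 0.071), though it did without TBT replicate 4 (-0.43, adjusted p = 0.024). Slc25a23, of the same type, was at 109 ± 11.9, 81.3 ± 14.8 and 116 ± 26.4 CPM and passed in neither comparison with DMSO (adjusted p = 0.086 and 0.72), though the ROSI difference passed without TBT replicate 4 (-0.41, adjusted p = 0.031). The TBT difference passed without TBT replicate 4 when offsets were also corrected for GC content (0.52, adjusted p = 0.012).

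Of the carriers of iron and glutathione, 1 of 4 rose with ROSI. This was Slc25a39, which brings glutathione into the matrix, at 14.7, 17.1, 19.1 and 10.3 CPM in DMSO, 38.6, 32.4, 30.8 and 24.1 in ROSI and 12.5, 11.6, 15.2 and 18.7 in TBT. Its ROSI libraries lay above all others (1.04 ± 0.21, adjusted p = 0.0013). Its relative Slc25a40 differed from DMSO by 0.41 ± 0.20 in ROSI and 0.35 ± 0.20 in TBT (adjusted p = 0.16 and 0.24), and the iron carrier Slc25a37 by 0.07 ± 0.13 and 0.17 ± 0.13.

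Slc25a20, the carnitine and acylcarnitine carrier and so the entry of long-chain fatty acids to oxidation, passed with neither ligand. It was at 38.5, 33.7, 47.7 and 62.3 CPM in DMSO, 48.9, 49.1, 70.0 and 67.6 in ROSI and 73.5, 86.7, 63.1 and 46.97 in TBT, and each ligand group overlapped with DMSO. The differences were 0.37 ± 0.21 (adjusted p = 0.23) and 0.56 ± 0.21 (adjusted p = 0.073). Without TBT replicate 4, the lowest library of its group, the TBT value was 0.71 and passed (adjusted p = 0.0079).

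Slc25a46, an outer membrane member with a part in mitochondrial shape and no settled substrate, stood at 58.2, 59.4, 85.2 and 42.99 CPM in DMSO, 82.2, 92.6, 111 and 123 in ROSI and 167, 180, 166 and 92.4 in TBT. It rose with ROSI by 0.73 ± 0.22 (adjusted p = 0.020), with overlap between the groups, and by 1.30 ± 0.22 with TBT (adjusted p = 0.0012), without overlap. The ROSI call ended without DMSO replicate 1, 2 or 4 or ROSI replicate 4 (adjusted p of up to 0.073). Slc25a27, an uncoupling-like carrier best known from brain, fell with both ligands, from 16.9, 14.7, 17.8 and 18.8 CPM to 10.8, 10.3, 9.05 and 7.22 in ROSI and 9.83, 10.6, 11.1 and 10.7 in TBT (-0.88 ± 0.17, adjusted p = 0.0010, and -0.70 ± 0.17, adjusted p = 0.012). Slc25a54, without a settled substrate, was low, at 3.80, 2.34, 1.80 and 3.16 CPM in DMSO and 0.752, 0.316, 0.647 and 1.40 in ROSI, 59 against 17 reads in all. It fell, with a log2 fold change of -1.84 ± 0.52 (adjusted p = 0.016), a call that ended without ROSI replicate 2 or 3 (adjusted p of up to 0.059). Reads on 1504 sensory receptor genes, which most tissues do not use, made up between 295 and 775 CPM in DMSO, 62.8 and 76.0 in ROSI and 115 and 195 in TBT (without TMM scaling). They are lower with both ligands, as Slc25a27 was, while Slc25a54 did not fall with TBT (0.42 ± 0.46, adjusted p = 0.56 in the DESeq2 test). The part of these reads in the falls of these low carriers was not tested.

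**Figure D3:**
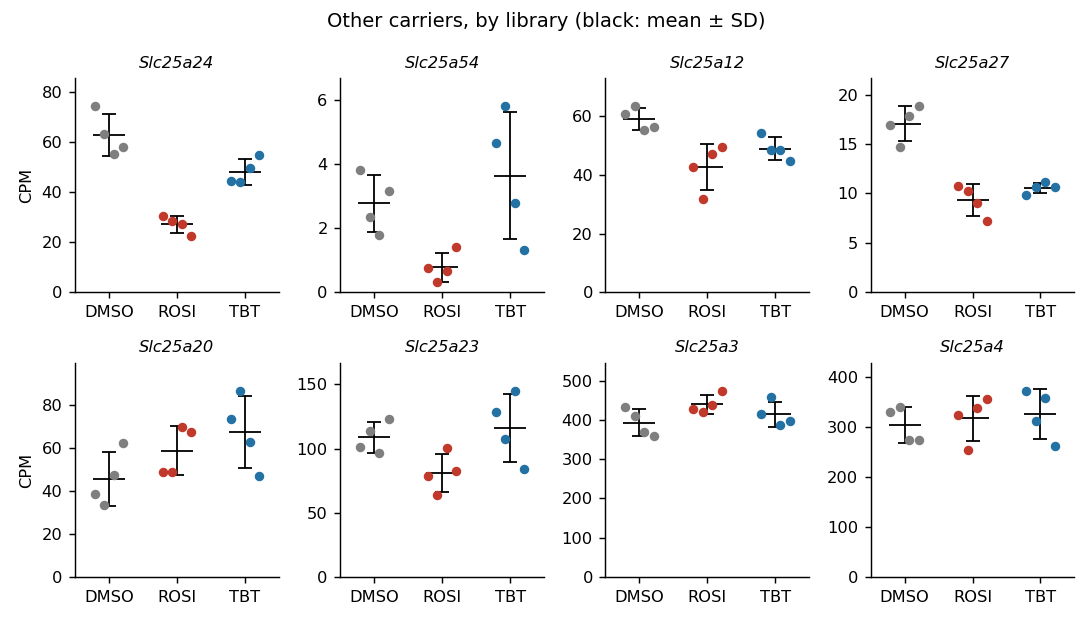
CPM of 8 carriers in each library, with group mean and SD (n = 4 per group). The 3 groups of Slc25a24 are separate, Slc25a27 is lower with both ligands, and the groups of Slc25a3, Slc25a4 and Slc25a20 overlap.

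With TBT, 4 of the 39 carriers rose and 2 fell against the same DMSO libraries, beside 8.22% and 7.03% of all tested genes (15.2% in either direction). The median log2 fold change was 0.06 over the carriers and -0.01 over all genes. Those that rose were Slc25a34, Slc25a46, Slc25a42 and Slc25a32, each also higher with ROSI, and Slc25a27 fell with both. The 2 comparisons share their DMSO libraries. Slc25a32 was at 32.8, 30.4, 42.7 and 31.4 CPM in DMSO and at 52.7, 46.7, 47.5 and 57.0 in TBT, without overlap (0.56 ± 0.14, adjusted p = 0.015), and after correction for GC content the value was 0.40 (adjusted p = 0.068).

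Without TBT replicate 4, 12 carriers passed against DMSO, 6 higher and 6 lower, where 6 had passed with it. Over all genes, 1879 of 12323 passed with it and 4124 of 12635 without it. Nothing is therefore read from the larger number of carriers. The 6 added carriers were Slc25a20 (0.71) and Slc25a26 (0.61), a carrier of S-adenosylmethionine, on the higher side, and Slc25a1 (-0.74), the glutamate carrier Slc25a18 (-1.42), Slc25a24 (-0.43) and the uncoupling-like Slc25a30 (-0.83) on the lower side. The Slc25a18 value had an SE of 0.50, and with all 12 libraries its adjusted p was 0.34. All 6 called with 12 libraries were also called without TBT replicate 4. When GC-corrected offsets were used as well, Slc25a20, Slc25a26, Slc25a24 and Slc25a30 still passed. Slc25a1 (-0.36, adjusted p = 0.24) and Slc25a18 (-1.25, adjusted p = 0.067) did not, and neither did Slc25a32 (0.31, adjusted p = 0.10). In that fit Slc25a10 (0.56, adjusted p = 0.015), Slc25a23 (0.52, adjusted p = 0.012) and Slc25a44 (0.41, adjusted p = 0.038) passed as well. Over all genes it called 3356 of 12044.

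TBT and ROSI were compared directly, at the different doses given above, which tests the difference between the ligands. Of the 39 carriers, 11 were lower and 3 higher in TBT than in ROSI, beside 11.1% and 12.8% of all tested genes (23.9% in either direction). The total of 14 was 8 without ROSI replicate 1 or 2 and 9 without TBT replicate 1 or 3, and the lower count was 7 without TBT replicate 1, 2 or 3. Calls over all genes fell too, from 2940 of 12323 to 1896 of 12630 and 1854 of 12402 without ROSI replicate 1 and 2. They were 1732 of 12391, 2250 of 12407 and 1919 of 12615 without TBT replicate 1, 2 and 3. The median was -0.16 over the carriers and 0.02 over all genes. Among the carriers lower in TBT, Slc25a33 differed by -1.35 ± 0.21 (adjusted p = 0.00019), Slc25a39 by -1.12 ± 0.21 (adjusted p = 0.0011), Slc25a1 by -1.05 ± 0.26 (adjusted p = 0.0090) and Slc25a5 by -0.75 ± 0.13 (adjusted p = 0.00073). These 4 passed in all 21 alternatives run. A further 6 were Slc25a10 (-0.61), Slc25a11 (-0.52), Slc25a16 (-0.67), Slc25a30 (-0.76), Slc25a35 (-0.87) and Slc25a38 (-0.74), and each of these calls ended when at least 1 ROSI or TBT library was left out: Slc25a10 without ROSI replicate 1 or 2 or TBT replicate 1, 2 or 3, Slc25a11 without TBT replicate 1, Slc25a16 without ROSI replicate 1 or 2 or TBT replicate 3, Slc25a30 without ROSI replicate 1 or 2 or TBT replicate 1, 2 or 3, Slc25a35 without ROSI replicate 1 or 2 or TBT replicate 1 or 2, and Slc25a38 without ROSI replicate 1 or 2 or TBT replicate 2 or 3. The highest adjusted p among these was 0.14, for Slc25a10. Without TBT replicate 4, Slc25a22 (-1.20, adjusted p = 0.0022) and Slc25a46 (0.75, adjusted p = 0.0023) passed as well.

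On the higher side in TBT were Slc25a54 (2.26 ± 0.50, adjusted p = 0.0040), with 75 reads in TBT against 17 in ROSI and overlapping libraries, Slc25a24 (0.83 ± 0.14, adjusted p = 0.00059) and Slc25a23 (0.51 ± 0.17, adjusted p = 0.035). The Slc25a23 call ended without ROSI replicate 1, 2 or 4 or TBT replicate 1 or 3 (adjusted p of up to 0.15). For Slc25a34 and Slc25a42, which rose with both ligands, TBT minus ROSI was -0.47 (95% interval -1.06 to 0.13) and -0.17 (-0.53 to 0.19), so neither a difference nor its absence was shown.

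The contrast between the ligands was set beside base composition, whose part in it was not tested. The median of the carriers for TBT against ROSI was -0.16 in the main fit and -0.16 with GC-corrected offsets. Over the 39 carriers the log2 fold change of TBT against ROSI and the GC content of the longest transcript had a correlation of -0.50 across genes, against -0.28 over 11736 genes with a GC value, and for TBT against DMSO these were -0.08 and -0.25. For ROSI against DMSO they were 0.34 and 0.08, so over the carriers the relation was larger in the comparisons that hold ROSI than in TBT against DMSO. Genes of 1 library set share its depth and composition, so these are descriptions. With GC-corrected library offsets, 8 of the 11 carriers called lower and all 3 called higher in TBT than in ROSI were called again. Slc25a10, Slc25a11 and Slc25a38 then missed the threshold (adjusted p = 0.16, 0.058 and 0.075). Against DMSO, Slc25a10 (0.66, adjusted p = 0.011) and Slc25a24 (-0.52, adjusted p = 0.031) then passed with TBT, and Slc25a32 did not.

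**Figure D4:**
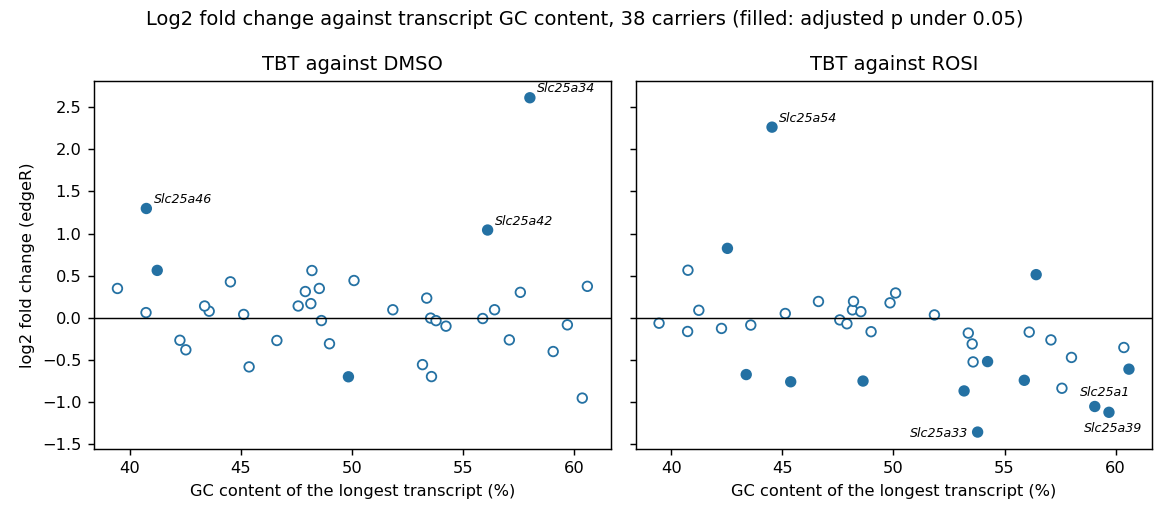
Log2 fold change of TBT against DMSO (left) and TBT against ROSI (right) for 38 of the 39 tested carriers, plotted against the GC content of the longest transcript in percent. Filled points passed an adjusted p of 0.05. The right panel falls from left to right (r = -0.50 across all 39), and Slc25a34 stands apart in the left panel.

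Partner enzymes of the carriers, from a fixed list chosen with earlier results of these data known, moved as follows. Of 21 tested, 13 rose and 2 fell with ROSI, 7 rose and 1 fell with TBT, and 14 were lower and 3 higher in TBT than in ROSI. Of all tested genes, 10.0% rose and 12.6% fell with ROSI, and 8.22% rose and 7.03% fell with TBT. In TBT against ROSI, 11.1% were lower and 12.8% higher. On the citrate route, Cs, citrate synthase, rose with ROSI by 1.16 ± 0.14 and Acly, which splits exported citrate, was at 0.03 ± 0.14 with ROSI and rose by 0.54 ± 0.14 with TBT. Around the shuttles, Mdh1 and Got1 rose with ROSI (1.07 and 0.66), and Mdh1 also rose with TBT. Gpd1, which links glycerol phosphate to NADH, rose by 2.52 with ROSI and was at -0.27 with TBT. Gpd2 rose with both ligands, Mdh2 rose with ROSI, and Got2 fell with TBT. On the acylcarnitine route, Crat rose with both ligands (1.66 and 1.07), Cpt2 rose with ROSI (1.05), and Cpt1a, the outer enzyme, rose with TBT (1.13) and fell with ROSI (-0.58, adjusted p = 0.0495). In branched-chain amino acid breakdown Bcat2 rose with ROSI (1.48) and was at -0.69 with TBT.

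Other mitochondrial transport genes were followed for context. Of all tested genes, 10.0% rose and 12.6% fell with ROSI, and 8.22% rose and 7.03% fell with TBT. The lists here are short, and nothing is read from their distance to these shares. Of 13 tested pyruvate carrier, porin, sideroflexin and calcium genes, 5 rose and 1 fell with ROSI and 2 rose with TBT: Mpc1, of the pyruvate carrier, rose with both (0.93 and 0.75), as did the porin Vdac1 (0.79 and 0.42). Among carriers of the superfamily under other names, Ucp2 rose with both (1.03 and 0.69), Mtch1 and Mtch2 passed with neither, and Ucp1 and Ucp3 were too low to test. Of 10 genes that import carriers into the inner membrane, 2 rose with ROSI and 3 with TBT, with Tomm70a, a receptor for carrier precursors, in both (0.52 and 0.63). Of 8 tested genes that control mitochondrial number, 2 rose with ROSI, Ppargc1b (1.37) and Tfb2m (0.46), and 0 passed with TBT.

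The 8 carriers too low to test were Slc25a2, Slc25a13, Slc25a21, Slc25a31, Slc25a41, Slc25a43, Slc25a45 and Slc25a48, with between 4 and 91 reads over all 12 libraries and at most 3.09 CPM in any one. Slc25a14, Slc25a15, Slc25a25, Slc25a28, Slc25a29, Slc25a36, Slc25a47 and Slc25a53 passed in none of the 3 comparisons, with log2 fold changes from -0.60 to 0.31 for ROSI and from -0.95 to 0.35 for TBT against DMSO. Among these 8 carriers the lowest value in both was that of Slc25a29, a carrier of basic amino acids (adjusted p = 0.20 and 0.061). Reads carried no strand, and in GENCODE M21 the exons of Slc25a35 share 820 bases with Rangrf on the other strand, those of Slc25a46 374 bases with B930094E09Rik, those of Slc25a33 281 with Gm13068 and those of Slc25a10 228 with Gm11788, so that reads there cannot be told apart.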

How the data were processed

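RNA depleted of ribosomal RNA was sequenced as single undirected 50-base reads on a SOLiD 5500XL, per the labels' protocols, and 12 libraries were compared. The deposited count table holds the authors' raw counts per gene symbol, and a second deposited table holds their regularized-log values on a log2 scale. The submitters' processing notes name mm9, FastQC, SAMtools and DESeq2, with no roles or versions. Which aligner and which annotation were used is not given in the sources used here.

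Counts of 12323 genes that passed edgeR's filterByExpr were scaled by TMM and fitted in edgeR 4.0.16 (R 4.3.3) with its quasi-likelihood test, all 3 groups in 1 model. Adjusted p-values are Benjamini-Hochberg values over all tested genes, with a threshold of 0.05. CPM are TMM-scaled, and intervals are 95% intervals of the log2 fold change. Depth was 4027152 to 7474654 counts. The labels do not say that libraries came from separate cultures, and the p-values therefore cover only library-to-library spread, possibly technical in part. DESeq2 1.42.0 and limma 3.58.1 (on the deposited log2 values) served as alternatives, with other scalings and filters, a replicate block, single libraries left out and, chosen after seeing the data, offsets corrected for GC content. The scripts were tested on simulated data. The members and lists were chosen with earlier results of these data known. Values per library are given, in the text or a figure, for the reported leading carriers past the threshold. These are 6 higher and 4 lower for ROSI against DMSO, and up to 4 and 4 for the other comparisons. The same holds for 11 fixed carriers, except Slc25a13, Slc25a35 and Slc25a44, which are given by group or by log2 fold change. Exon lengths, GC content and overlaps are those of GENCODE M21, not of mm9, and no coordinate was converted. Values of 1 tested carrier are not reported here, though counts over the family include it.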

Additional observations from a re-analysis of the deposited data

Results flagged for a closer look

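In 69 groups of 4 libraries (23 carriers in 3 groups), 1 library lay far from the other 3 in 4 cases, by a gap of over 0.829 of the group's range. Chance flags about 1 in 20 such groups. Slc25a42 stood at 23.3 CPM in DMSO replicate 3, where the next library had 15.7, and at 47.4 CPM in TBT replicate 4, where the next had 32.9. Slc25a46 was at 92.4 CPM in TBT replicate 4 and at 166 or more in the other TBT libraries. Slc25a11 was at 41.1 CPM in ROSI replicate 4, the lowest of a group that ended at 47.6.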

How the results depend on the processing

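Each comparison was repeated under 21 alternatives, and no carrier described in the report with a call reversed its direction in any of them. Leaving out single libraries gave 11 to 20 called carriers for ROSI against DMSO (9 to 15 higher, 2 to 5 lower), 6 to 12 for TBT against DMSO (4 to 6 and 2 to 6) and 8 to 16 for TBT against ROSI (2 to 4 higher, 6 to 12 lower). With GC-corrected offsets and without TBT replicate 4, TBT against DMSO gave 12 (8 higher, 4 lower) and TBT against ROSI 5 higher. With only the 2 groups compared, 1 carrier was higher in TBT than in ROSI: Slc25a23 missed the threshold (adjusted p = 0.070) and Slc25a54 was below the filter of that fit. Over all genes, 1879 passed for TBT against DMSO and 2940 for TBT against ROSI. Those counts were 4124 and 4826 without TBT replicate 4, 1056 and 1732 without TBT replicate 1, and 1080 and 1919 without TBT replicate 3. For TBT against DMSO the count was 1019, 1088 and 1138 without DMSO replicate 1, DMSO replicate 2 and TBT replicate 2, 1199 with only the 2 groups, and 3356 with GC-corrected offsets and without TBT replicate 4. For TBT against ROSI it was 1896 and 1854 without ROSI replicate 1 and 2. Without a filter, the median log2 fold change of all genes was -0.18 for ROSI and -0.22 for TBT against DMSO. Calls that held in all alternatives in which the carrier was tested were 10 of 18 for ROSI against DMSO, 5 of 6 for TBT against DMSO and 7 of 14 for TBT against ROSI, where Slc25a54, one of the 7, was tested in 19 of the 21. Low counts limit Slc25a34 in DMSO and Slc25a54: on the deposited log2 values, which shrink low genes, Slc25a34 differed by 1.36 between ROSI and DMSO and by 1.05 between TBT and DMSO.

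With the replicate number as a block, 13 carriers passed for ROSI against DMSO (10 higher, 3 lower) and 6 for TBT against DMSO (4 and 2). For TBT against ROSI 11 passed (2 higher, 9 lower). Over all 12323 genes, 2289, 1160 and 2154 passed in these comparisons, where 2787, 1879 and 2940 had passed without the block. Libraries with the same number correlated between -0.43 and 0.14 in their deviations from the group means, and 1 of 12 libraries correlated best with its own number, so the numbers were not taken as pairs.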
